A study of Mus musculus with 17 samples.

Results

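Intronic regions of histone H3 lysine 9 acetylation (H3K9ac) that lie near, but not at, a transcription start site were followed in mouse liver. A region was taken when its list of overlapping introns was filled, its list of 3′ untranslated regions was empty, its distance to the nearest start site was over 1000 and at most 10000 bases, and its length was below 4000 bases. This gave 10577 of the 57499 regions of the H3K9ac table, or 18.4%, next to 5421 named genes, while 32 regions had no usable gene name. None of these criteria used a read count. Livers came from C57BL/6 mice, an inbred laboratory strain, fed a high-fat diet (HFD) with 60% of calories from fat or a control diet (CD) with 18%, both for 10 weeks. H3K9ac was measured by chromatin immunoprecipitation and sequencing in 3 livers per diet (A, B and D under HFD, A, C and D under CD), and total RNA, as the labels call it, in 4 livers per diet (A to D). The labels name no mutant allele or further agent in any group. The labels do not state sex, age, collection hour or feeding. The labels do not say that equal letters mark related livers.

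Acetylation of lysine 9 on histone H3 is written by acetyltransferases of the GCN5 and PCAF family and removed by histone deacetylases, and it marks nucleosomes of active genes. It is densest around the start sites of transcribed genes. Acetylated stretches in introns can mark enhancers, second promoters or the spread of the mark from the gene's main promoter into its first intron. In liver, introns of metabolic genes hold many binding sites of nuclear receptors and of other hepatocyte transcription factors.

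The deposited distances ran from the middle of a region, so a long region could be listed as over 1000 bases away and still cover a start site. This was so for 159 of the 10577 regions (1.5%), and 540 had at least 1 base within 1000 bases of the listed start. In addition, 163 regions (1.54%) wholly contained at least 1 start window of RefSeq (250 bases before to 50 after a start, assembly GRCm38.p6, the assembly named mm10 in the submitters' processing notes), and 87 of these did not reach the start from which the deposited distance was taken. To show what such regions hold, 6 start windows inside regions that changed with diet are printed here on the strand of the gene. Each runs from 250 bases before the RefSeq start, and capitals mark the first 25 transcribed bases. The first 3 lie in regions that reached the listed start, and the last 3 hold a start that the deposited distance did not use.
Csad: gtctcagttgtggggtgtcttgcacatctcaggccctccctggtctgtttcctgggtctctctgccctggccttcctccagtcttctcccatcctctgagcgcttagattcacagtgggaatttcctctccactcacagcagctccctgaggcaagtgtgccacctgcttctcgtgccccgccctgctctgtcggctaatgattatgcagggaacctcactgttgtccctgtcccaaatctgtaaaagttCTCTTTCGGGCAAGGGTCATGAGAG
Cry2: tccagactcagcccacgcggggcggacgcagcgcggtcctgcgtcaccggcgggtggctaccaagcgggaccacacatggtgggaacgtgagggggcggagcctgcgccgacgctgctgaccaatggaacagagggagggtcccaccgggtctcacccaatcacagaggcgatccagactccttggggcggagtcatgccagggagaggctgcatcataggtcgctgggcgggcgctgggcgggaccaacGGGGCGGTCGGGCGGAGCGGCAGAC
Aqp8: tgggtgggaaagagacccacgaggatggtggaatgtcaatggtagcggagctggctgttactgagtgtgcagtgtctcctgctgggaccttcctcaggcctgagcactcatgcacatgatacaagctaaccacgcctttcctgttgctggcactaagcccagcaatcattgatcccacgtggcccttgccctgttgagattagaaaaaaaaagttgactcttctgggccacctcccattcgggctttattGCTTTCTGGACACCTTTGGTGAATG
Ethe1: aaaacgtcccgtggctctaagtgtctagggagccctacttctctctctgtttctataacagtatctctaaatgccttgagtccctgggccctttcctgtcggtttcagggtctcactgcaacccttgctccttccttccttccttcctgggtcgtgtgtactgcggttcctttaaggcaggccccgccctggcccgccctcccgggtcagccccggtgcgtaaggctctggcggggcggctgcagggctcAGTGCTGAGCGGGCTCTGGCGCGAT
Micalcl: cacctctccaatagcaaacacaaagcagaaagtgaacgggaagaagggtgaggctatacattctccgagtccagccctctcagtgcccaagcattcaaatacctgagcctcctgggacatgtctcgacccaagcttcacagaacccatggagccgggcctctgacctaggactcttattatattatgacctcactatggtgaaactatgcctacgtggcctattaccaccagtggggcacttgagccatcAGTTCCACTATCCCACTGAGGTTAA
Gm33429: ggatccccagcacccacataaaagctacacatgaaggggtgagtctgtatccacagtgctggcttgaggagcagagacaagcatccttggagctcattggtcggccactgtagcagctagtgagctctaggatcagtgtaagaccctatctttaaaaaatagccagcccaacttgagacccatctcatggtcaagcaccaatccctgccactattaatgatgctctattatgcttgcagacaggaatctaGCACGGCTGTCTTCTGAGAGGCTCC
The Csad window (chr15:102189019-102189293, minus strand) lies in the region chr15:102186472-102189295 with a listed distance of 1159 bases. The Cry2 window (chr2:92434045-92434319, minus strand) and the Aqp8 window (chr7:123462044-123462318, plus strand) lie in regions listed at 1293 and 1354 bases. The Ethe1 window (chr7:24593658-24593932, plus strand) lies in a region whose listed nearest gene was Zfp575, at -7050 bases (minus for upstream of the start). The Micalcl window (chr7:112374607-112374881, plus strand) belongs to another start of that gene than the listed one, and the Gm33429 window (chr6:37531379-37531653, minus strand) lies within Akr1d1.

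The regions were short and weakly marked. Their median length was 466 bases (quartiles 317 and 773, range 213 to 3987), and their median level was 2.04 CPM (counts scaled to a common library size of 1e6) over the 6 libraries (quartiles 1.38 and 3.94, range 0.708 to 419). The median distance to the nearest start was 4237 bases. Most of them, 8955 or 84.7%, lay downstream of that start, and 8724 (82.5%) lay in an intron of the nearest gene itself. The other 1853 lay in an intron of another gene, and 1230 of those were upstream of the nearest start. A share of 10.6% (1116 regions) carried an entry in the authors' column of enhancer targets, whose entries name 3T3-L1, a mouse preadipocyte line, and not liver, against 7.38% of deep intronic regions, 10.48% of start-site regions and 7.53% of all regions. The listed enhancer target was the nearest gene for 95 of the 1116, and another gene for 1021.

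Density, the CPM per kilobase of region, stood close to that of introns farther away and far below that of start sites. The median density of the intronic regions was 4.66, 4.92 and 4.29 CPM per kb in HFD A, B and D, and 4.81, 4.46 and 4.75 in CD A, C and D. The ranges of both diets overlapped. On the log2 scale the density was 0.037 higher than that of deep intronic regions, which follow the same rule at over 10000 bases (range 0.019 to 0.057 over 6 libraries). It was above the deep intronic density in 6 of 6 libraries (exact sign-flip permutation test over 6 libraries, two-sided, p = 0.03125, the smallest this design allows). Start-site regions were those within 1000 bases of a start and below 4000 bases long, so broader ones were left out. Against them, the difference on the log2 scale was -2.36, or 5.14-fold lower, again in 6 of 6 libraries (exact permutation p = 0.03125). Without division by length these differences were 0.093 and -3.94, since start-site regions had a median length of 1304 bases. Without the regions that have a base within 1000 bases of the start, the difference from deep intronic regions was 0.0196, again above in 6 of 6 libraries. All 6 libraries were counted over the same regions, so a difference in makeup between the sets recurs in each. The permutation p-values therefore speak only for agreement between libraries.

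Density declined slightly with distance. Its median was 4.92 CPM per kb in regions at 1 to 2 kb, 4.59 at 2 to 4 kb, 4.47 at 4 to 6 kb, 4.41 at 6 to 8 kb and 4.39 at 8 to 10 kb. Across the near limit of the rule the density differed by more than along this slope. Regions in introns at 800 to 1000 bases, just outside, had a median of 8.03 CPM per kb (n = 398), and those at 1000 to 1200 bases, just inside, 5.59 (n = 360). They also differed in kind, with a median length of 1698 bases outside and 541 inside. Their median levels were 11.5 and 2.81 CPM. At the far limit density did not decline further, with medians of 4.21 CPM per kb inside (9800 to 10000 bases, n = 142) and 4.41 outside (the next 139 regions, just over 10000 bases). The share of all H3K9ac counts that fell in the intronic regions was 5.71, 5.81 and 5.31% in HFD A, B and D, and 5.83, 5.52 and 5.59% in CD A, C and D. The means were 5.61 ± 0.265% in HFD and 5.65 ± 0.164% in CD (SD, n = 3 each), which did not differ beyond the spread between livers (exact permutation test, two-sided, p = 0.9, where 3 against 3 cannot go below 0.1).

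**Figure D1:**
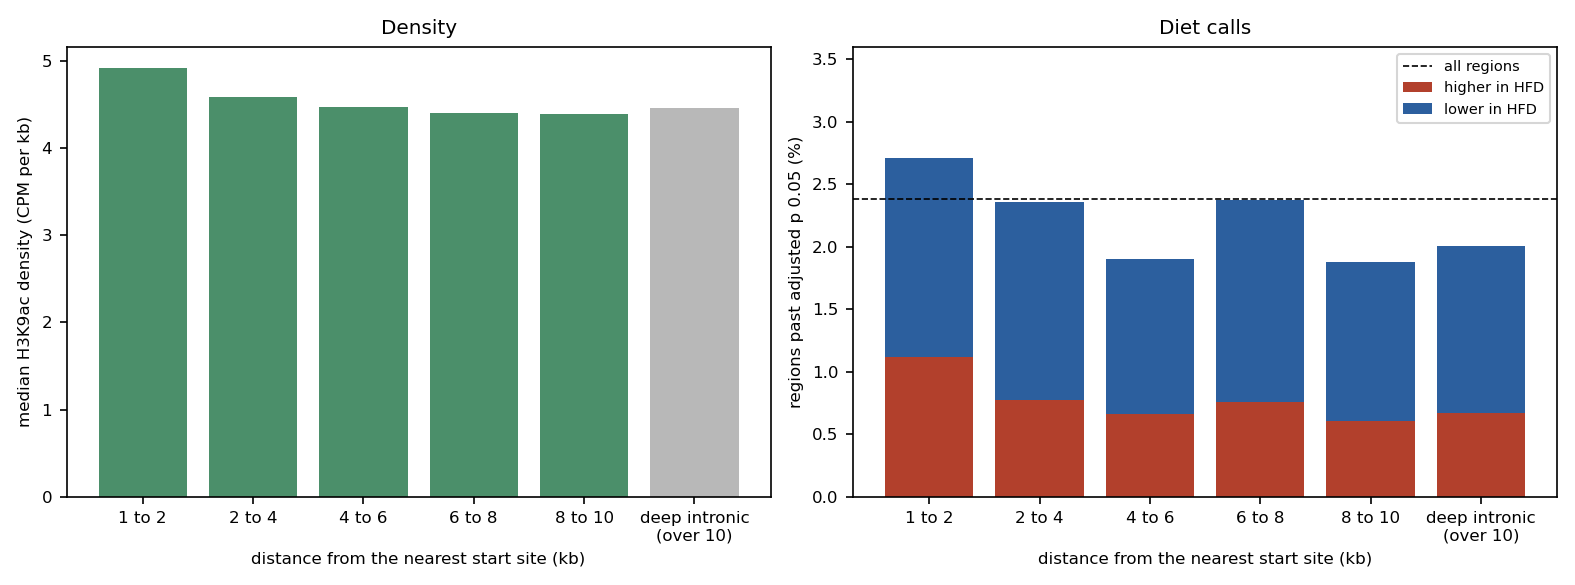
Left, median H3K9ac density (CPM per kb, over 6 libraries) of intronic regions by distance from the nearest start site (kb), with deep intronic regions in grey. Right, the percent of regions past an adjusted p of 0.05 between the diets, higher in HFD in red and lower in HFD in blue, with the 2.39% of all regions as a dashed line. Density runs between 4.92 and 4.39 CPM per kb, and the share called between 2.71% and 1.88%.

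None of the 5 densest regions differed between the diets beyond the threshold. They lay next to Ywhaz (a 14-3-3 protein gene), Gapvd1, Ppap2b and the noncoding gene Lincpint, all with a listed distance of 1102 to 1398 bases, and next to the pseudogene Pisd-ps1 in an intron of Sfi1. Those of Ywhaz, Ppap2b and Lincpint covered the listed start. The Ywhaz region averaged 414 ± 34.7 CPM in HFD and 425 ± 23.2 CPM in CD (SD, n = 3 each, log2 change -0.04, SE 0.07). The Ppap2b region averaged 236 ± 3.10 CPM in HFD and 233 ± 11.9 CPM in CD (log2 change 0.01, SE 0.07). The smallest called change in the top quartile by level was 0.26 on the log2 scale, so smaller changes at these regions may have gone undetected.

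Between the diets, 239 of the 10577 intronic regions (2.26%) passed edgeR's quasi-likelihood test at a Benjamini-Hochberg adjusted p below 0.05 over all 57499 regions, against 2.39% of all regions. Of these, 83 were higher in HFD (all regions, 0.835%) and 156 were lower (all regions, 1.55%). The share called was thus near the background in both directions. The median log2 change was -0.011 over the intronic regions and -0.0025 over all regions, and 77 of the 239 changed at least 2-fold, 25 higher and 52 lower (all regions, 0.609%). HFD and CD values did not overlap in 15.4% of the intronic regions, against 15.4% of all regions, and in 223 of the 239 called regions. At an unadjusted p below 0.05 stood 10.7% of the intronic regions and 10.97% of all regions. By the authors' deposited table, a total of 254 intronic regions had a false discovery rate below 0.05, and 236 of the 239 were among them.

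Calls were made mostly in the better covered regions. The called regions had a median level of 7.55 CPM, and the others 2.01 CPM. Of the regions in the lowest quartile by level (up to 1.38 CPM, a median of 12.7 counts per library) 0.151% were called, and then 0.567%, 1.78% and, in the highest quartile (83.2 counts), 6.54%. The smallest change called was 1.52 on the log2 scale in the lowest quartile and 0.26 in the highest, so that smaller changes in the weakest quartile were not detectable at this depth. Regions with a base within 1000 bases of the start were called in 5.56% of cases (12 higher, 18 lower) and had a median of 6.67 CPM. Among the 163 regions that contained a RefSeq start window, 17 were called (5 higher, 12 lower), or 10.4%, against 2.13% of the others, at a median level of 38.3 CPM against 2.02 CPM. The part of level in this difference was not tested.

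The direction of the calls rested on single libraries. Without HFD D, 166 intronic regions were higher and 144 lower, and without CD A, 79 were higher and 85 lower. Without HFD B, 23 were higher and 68 lower. None of the 239 changed sign in any of these fits, but the excess of decreases among them is not independent of which livers were used.

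**Figure D2:**
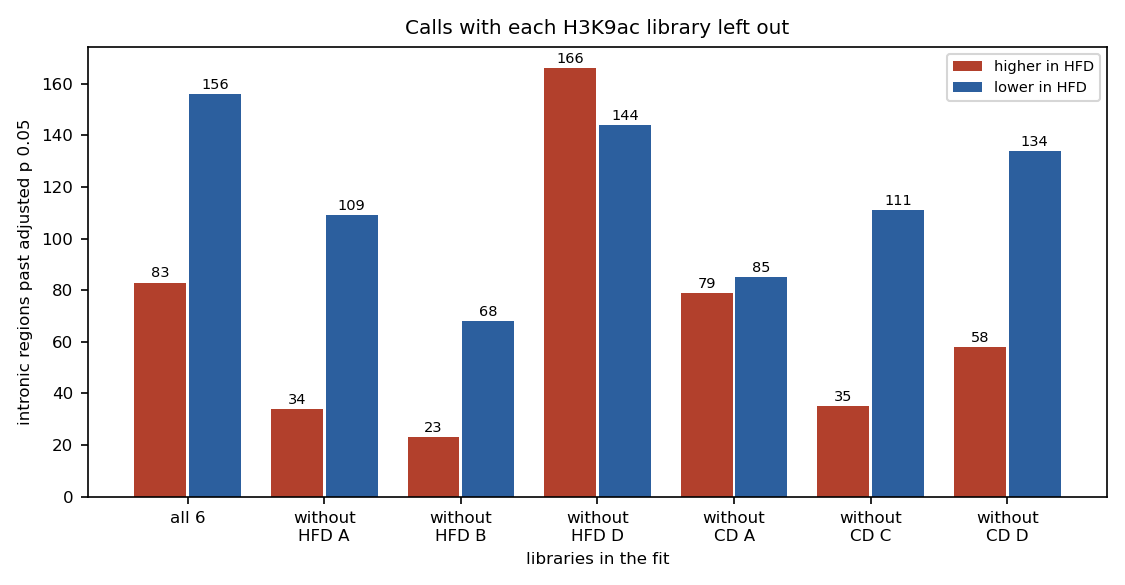
Number of intronic regions past an adjusted p of 0.05, higher in HFD (red) and lower in HFD (blue), with all 6 H3K9ac libraries and with each library left out in turn. Decreases outnumber increases, 156 to 83, with all libraries, but not without HFD D, where 166 are higher and 144 lower.

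The largest changes were taken among called regions at or above the median level whose diets did not overlap. Of the 8 largest decreases, 2 were regions of Csad and 2 lay in introns of Ppard. The others were next to Ddc, Crot, Serpina1e and, in an intron of Dock6, Mir7083. Csad encodes cysteine sulfinic acid decarboxylase, an enzyme of taurine synthesis. Its start-spanning region had 13.6, 14.8 and 11.4 CPM in HFD A, B and D, against 65.8, 82.0 and 79.0 CPM in CD A, C and D. All 3 HFD livers were far below all 3 CD livers (log2 change -2.50, SE 0.11, adjusted p = 3.1e-26, edgeR). A separate Csad region, at chr15:102185528-102186239 and 3159 bases from the start, had 2.38, 1.13 and 1.1 CPM in HFD A, B and D, against 5.36, 8.50 and 7.92 CPM in CD A, C and D (-2.20, SE 0.26). The loss therefore also held in an intronic stretch that touches no listed start.

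Ddc, which encodes aromatic amino acid decarboxylase, held the largest decrease of the regions named here. At chr11:11896203-11896621, 1731 bases into the gene, the region had 0.681, 0.869 and 0.549 CPM in HFD A, B and D, against 5.63, 4.25 and 3.56 CPM in CD A, C and D (log2 change -2.64, SE 0.31, adjusted p = 6.69e-09, edgeR). The HFD values rest on 8, 10 and 5 reads. A second Ddc region, 1685 bases from another listed start, averaged 3.10 ± 0.973 CPM in HFD and 5.67 ± 1.31 CPM in CD (-0.85, SE 0.23). RNA of Ddc averaged 46.0 ± 8.78 CPM in HFD and 130 ± 25.5 CPM in CD (SD, n = 4 each, adjusted p = 0.000609, edgeR).

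A run of 3 regions in introns of Ppard, a lipid-sensing nuclear receptor, fell together. The deposited table lists Mir5098 as their nearest start, at -3935, -6546 and -9328 bases, although the regions lie within Ppard. The widest, at chr17:28278467-28281868, had 33.2, 25.2 and 27.6 CPM in HFD A, B and D, against 135, 98.3 and 84.8 CPM in CD A, C and D (log2 change -1.88, SE 0.11, adjusted p = 7.1e-21, edgeR). Its neighbours averaged 5.97 ± 0.129 CPM in HFD and 16.2 ± 4.24 CPM in CD, and 4.00 ± 0.223 CPM in HFD and 9.29 ± 2.32 CPM in CD (SD, n = 3 each). RNA of Ppard, looked up after the regions had been seen, averaged 6.31 ± 0.504 CPM in HFD and 32.9 ± 4.25 CPM in CD (SD, n = 4 each, log2 change -2.38, SE 0.13, adjusted p = 7.69e-06, edgeR).

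Crot encodes the peroxisomal carnitine octanoyltransferase, which hands shortened fatty acids to mitochondria. Its region at chr5:8994222-8994926 had 2.81, 3.48 and 3.19 CPM in HFD A, B and D, against 7.23, 8.58 and 8.12 CPM in CD A, C and D (log2 change -1.34, SE 0.21, adjusted p = 9.1e-06, edgeR). In all, 3 of the 4 Crot intronic regions fell, while the RNA did not pass the threshold (652 ± 153 CPM in HFD, 890 ± 57.9 CPM in CD, SD, n = 4 each, adjusted p = 0.117). Serpina1e, one of several near-identical alpha-1-antitrypsin genes among which reads may be split, had 5.74 ± 0.907 CPM in HFD and 14.4 ± 2.30 CPM in CD in its region (log2 change -1.32, SE 0.18). A region in an intron of Dock6 listed under Mir7083 had 1.47 ± 0.573 CPM in HFD and 3.73 ± 0.777 CPM in CD (-1.37, SE 0.29), and its call was lost without HFD B (adjusted p = 0.0856).

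The increases had another set of genes. Ccrn4l, which encodes the rhythmic deadenylase-like protein nocturnin, had 10.6, 11.8 and 6.59 CPM in HFD A, B and D, against 3.39, 2.08 and 1.98 CPM in CD A, C and D, in its region at chr3:51225978-51226705 (log2 change 1.96, SE 0.23, adjusted p = 4.37e-09, edgeR). Cyp17a1, a cytochrome P450 of steroid synthesis, had 12.2, 8.17 and 8.79 CPM in HFD A, B and D, against 2.5, 3.33 and 2.38 CPM in CD A, C and D, at chr19:46670384-46672155 (1.82, SE 0.21). Mfsd2a, a transporter of lysophospholipids, had 15.1, 15.5 and 12.2 CPM in HFD A, B and D, against 3.75, 4.5 and 5.54 CPM in CD A, C and D, at chr4:122950238-122952909 (1.64, SE 0.18). In each of these regions the lowest HFD liver was above the highest CD liver, which was a condition of their choice.

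Fads2 encodes a desaturase of polyunsaturated fatty acid synthesis. The region at chr19:10095709-10099098, 4099 bases from the start, had 35.9, 32.9 and 18.8 CPM in HFD A, B and D, against 13.1, 10.4 and 9.31 CPM in CD A, C and D (log2 change 1.42, SE 0.16, adjusted p = 7.31e-10, edgeR). HFD D was the lowest HFD liver here, as it was in the regions of Ccrn4l, Mfsd2a, Nnmt, Aoc1 and 1810055G02Rik, but not in that of Cyp17a1. Nnmt, a nicotinamide methyltransferase, averaged 3.14 ± 1.11 CPM in HFD and 1.08 ± 0.00881 CPM in CD (1.56, SE 0.31). A pair of regions in introns of Aoc1, the diamine oxidase gene, each had a log2 change of 1.53 (SE 0.30 and 0.33). They were listed at -3802 and -2034 bases from their nearest Aoc1 start. Of the 8 increases named, 3 lost their call when 1 library was left out. For the Aoc1 regions the highest edgeR adjusted p-values were 0.191 (HFD B left out) and 0.141 (HFD A left out), and for 1810055G02Rik 0.0563 (HFD A left out).

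**Figure D3:**
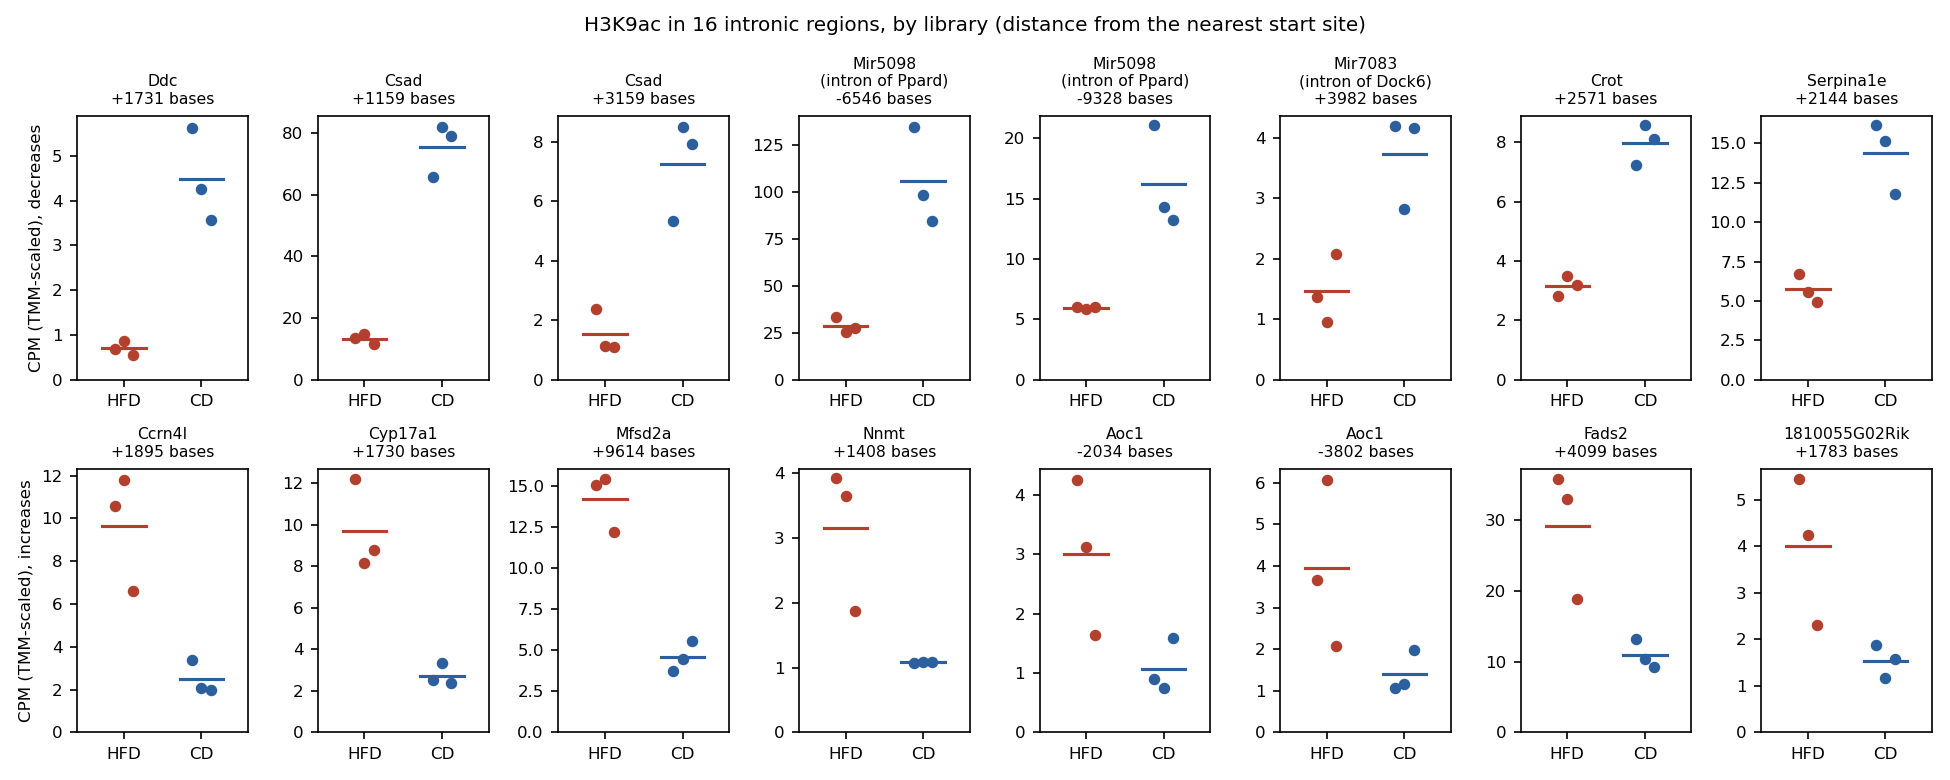
H3K9ac level (TMM-scaled CPM, axes from 0) in each library for the 8 largest decreases (top) and the 8 largest increases (bottom) among called intronic regions at or above the median level, HFD in red on the left and CD in blue on the right of each panel. Lines are means of 3 livers, and panel titles give the nearest gene and the distance from its start in bases. Regions were chosen with non-overlapping diets, so no panel has an overlap. HFD D is low among the HFD livers in most of the increases.

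Where a gene held several called regions, they moved the same way in nearly all cases. Of 39 genes with at least 2 called intronic regions, 27 had only decreases, 11 only increases and 1 both. Decreases in 3 regions each were found at Adck5, Lad1, Nfil3 and Rhou as well as at Crot and in Ppard. Nfil3 encodes a transcriptional repressor under clock control, and Rhou a small GTPase. The exception was Nfkbiz, an inhibitor-of-kappa-B family gene, in which a region 7764 bases into the gene had 1.02 ± 0.0273 CPM in HFD and 2.49 ± 0.228 CPM in CD, and a region at -1675 bases had 3.73 ± 0.562 CPM in HFD and 1.91 ± 0.321 CPM in CD (SD, n = 3 each). Regions of 1 gene share its transcription and are not independent of each other.

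The genes with the most intronic regions did not stand out by diet. Acsl1, an acyl-CoA synthetase, had 15 regions with log2 changes between -0.55 and 0.39, none of them called. Wbp1l and Zmynd8 had 14 regions each and no call, and Elmsan1 had 14 regions with 1 decrease. RNA of Acsl1 nevertheless fell to 1180.0 ± 113 CPM in HFD, against 1678 ± 58.3 CPM in CD (SD, n = 4 each, log2 change -0.51, SE 0.10, adjusted p = 0.0135, edgeR).

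Read by pathway, and by listed nearest gene, clock genes had 40 intronic regions, of which 5 rose, 3 fell and 32 did not pass. This was 20% called, against 2.39% of all regions, with a median log2 change of 0.27. Beside Ccrn4l, a region of the circadian repressor Cry2 averaged 109 ± 15.1 CPM in HFD and 80.9 ± 2.94 CPM in CD (log2 change 0.43, SE 0.08, adjusted p = 0.000524, edgeR). A region of the deubiquitinase gene Usp2 rose by 0.68 on the log2 scale. The 3 decreases counted were all in Nfil3, for example 51.1 ± 4.42 CPM in HFD and 66.0 ± 4.95 CPM in CD at 2385 bases from the start. A region in an intron of the clock gene Per2 also fell but was not counted, since its listed nearest gene was Hes6. It averaged 14.8 ± 3.10 CPM in HFD and 25.4 ± 2.53 CPM in CD (log2 change -0.79, SE 0.14, adjusted p = 7.47e-05, edgeR). By RNA, 15 of the 22 listed clock genes rose and 4 fell, against 3.63% higher and 3.64% lower of all genes. The list was chosen with earlier results of these data known.

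In the lists of lipid genes, 5.56% of lipogenesis regions, 11.1% of lipid droplet and uptake regions, 4.76% of fatty acid oxidation regions and 2.44% of cholesterol synthesis regions were called, against 2.39% of all regions, each on 1 to 3 calls. Of 54 lipogenesis regions, 2 rose (both Fads2) and 1 fell (Elovl6, a fatty acid elongase, 2.49 ± 0.863 CPM in HFD and 4.65 ± 0.846 CPM in CD). Of 18 regions of lipid droplet and lipid uptake genes, 2 rose, those of Mfsd2a and of the lipoprotein receptor gene Vldlr (23.6 ± 1.48 CPM in HFD and 15.6 ± 2.55 CPM in CD, adjusted p = 0.0785 without CD C, edgeR). The Vldlr region covered the listed start. Of 42 regions of fatty acid oxidation genes, 2 rose, both in Ppara, the nuclear receptor that drives that pathway. The stronger Ppara region had 43.2, 42.9 and 35.5 CPM in HFD A, B and D, against 29.7, 27.9 and 25.8 CPM in CD A, C and D (log2 change 0.55, SE 0.11, adjusted p = 0.000686, edgeR), while the weaker one lost its call in 5 of the 6 fits without 1 library. The second Fads2 region lost it in 3 of them. Of 41 regions of cholesterol synthesis genes, 1 fell, in Fdft1, the squalene synthase gene (log2 change -0.99, SE 0.24, adjusted p = 0.00978, edgeR). Its call was lost without CD A (adjusted p = 0.169, edgeR). By RNA, 15 of the 25 listed genes fell, against 3.64% of all genes.

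Regions of glucose and drug metabolism genes that passed were mostly higher in HFD, on a few calls per list. The shares called were 4.17% for glucose and insulin signalling and 16.7% for xenobiotic metabolism. They were 10% for glutathione and Nrf2 targets and 5.71% for bile acid and sterol transport, against 2.39% of all regions. Of 48 regions of glucose and insulin signalling genes, 2 rose, among them one in the liver glycogen synthase gene Gys2 (18.0 ± 2.11 CPM in HFD and 11.3 ± 1.73 CPM in CD). Without CD C the adjusted p of Gys2 was 0.0821 (edgeR). Of 18 regions of xenobiotic metabolism genes, 3 rose, in Nr1i3 (the constitutive androstane receptor), Por (the electron donor of cytochromes P450) and Ugt1a1, whose region lies in introns shared by the Ugt1a genes. Of 30 regions of glutathione and Nrf2 target genes, 2 rose (Gstt1, Gsta3) and 1 fell (Gstm1). Of 35 regions of bile acid and sterol transport genes, 2 rose, in the sterol transporter gene Abcg5 and the steroid reductase gene Akr1d1. The increases in Por, Gsta3, Gstt1 and Akr1d1 were lost in at least 4 of the 6 fits that left out 1 library, and so was that of Abcg5. That of Nr1i3 was lost in 2 (adjusted p = 0.298 without HFD B, edgeR). In the regions of Por, Gsta3 and Abcg5 the diets overlapped. By RNA, 5 of 22 xenobiotic metabolism genes rose and 6 fell, and 0 of 21 glutathione and Nrf2 target genes rose and 4 fell. Of the glucose genes 7 of 24 rose and 2 fell, and of the bile acid genes 5 of 21 rose and 4 fell. Of all genes 3.63% rose and 3.64% fell. RNA of Nr1i3, Por, Gstt1 and Gsta3 did not pass (adjusted p = 0.344, 0.261, 0.400 and 0.697, edgeR), while that of Gys2, Abcg5 and Akr1d1 rose.

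Stress genes had 2 regions that rose, both in Herpud1, a gene of endoplasmic reticulum protein degradation, and 2 that fell, near the transcription factor genes Atf4 and Atf5 but in introns of Mief1 and Nup62, of 23. Without HFD B the stronger Herpud1 region had an adjusted p of 0.0507 and the Atf5 region one of 0.0623 (edgeR). Sex-biased liver genes had 15 regions, of which 2 rose (both Cyp17a1) and 3 fell (Serpina1e, Cyp2d9 and Hsd3b5, the last with 0.887 ± 0.127 CPM in HFD and 2.28 ± 1.13 CPM in CD and overlapping diets). Of 37 regions of hepatocyte transcription factor genes, 2 fell, both in Stat5b, the growth hormone signal transducer, at 2.48 ± 0.411 CPM in HFD and 5.87 ± 0.188 CPM in CD for the stronger change (log2 change -1.23, SE 0.23, adjusted p = 0.000219, edgeR). The weaker Stat5b change was lost in 3 of the 6 fits without 1 library. Of 37 regions of acute phase and coagulation genes, 1 rose, in the haptoglobin gene Hp, whose diets overlapped and whose adjusted p was 0.302 without HFD B (edgeR). None of 22 regions of histone acetylation enzymes and none of 2 regions of immediate early genes passed. These lists were small, and against 2.39% of all regions only a handful of calls stands behind each share.

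Markers of the cells that a liver piece can hold were read in the same way. The 14 regions of hepatocyte marker genes, 20 of sinusoidal endothelium, 9 of stellate cells, 4 of Kupffer cells and macrophages and 3 of lymphocytes included no call, and no region belonged to a cholangiocyte marker. With 2.39% of all regions called, lists of this size can hold no call without differing from the background. By RNA the summed level of hepatocyte markers was 137230 to 158820 CPM in HFD and 122039 to 136928 CPM in CD, over the 12 of 13 listed genes that were measured, 2 of which passed the test as higher in HFD. Kupffer cell markers summed to 179 to 476 CPM in HFD and 232 to 339 CPM in CD, and cholangiocyte markers to 57.4 to 83.7 CPM in HFD and 84.6 to 100.5 CPM in CD (6 of 7 measured, 1 of them lower in HFD). The sums of hepatocyte and of cholangiocyte markers did not overlap between the diets, and those of the Kupffer cell markers did. Such a sum is carried mostly by its most abundant genes, so it does not show a shift of the whole list. Endothelial markers summed to 173 to 349 CPM in HFD and 212 to 294 CPM in CD, stellate cell markers to 311 to 550 CPM in HFD and 407 to 478 CPM in CD, and the 4 of 8 lymphocyte markers measured to 9.25 to 19.4 CPM in HFD and 9.98 to 12.8 CPM in CD. The lymphocyte genes Cd3e, Cd8a, Ms4a1 and Nkg7 and the cholangiocyte gene Cftr were not listed in the RNA table. In whole tissue, fewer cells of a type and less signal per cell cannot be told apart, and the part of cell makeup in the region changes was not tested.

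Whether an intronic region changed apart from a start-site region with the same listed nearest gene was tested directly. Some of the intronic regions lie in an intron of another gene than that one. For 8387 intronic regions, the per-library log2 difference from the strongest region within 1000 bases of a start of that nearest gene was compared between the diets with limma. This difference of changes passed an adjusted p of 0.05 in 2 pairs, or 0.0238% of those tested, while 590 pairs (7.03%) had an unadjusted p below 0.05. In edgeR's interaction test 7 pairs passed (0.0835%), 2 higher and 5 lower. The start-site partners, unlike the start-site regions of the density comparison, had no limit on length. They had a median level of 58.2 CPM, and the intronic regions 2.01 CPM, so most pairs set a weak region against a strong one.

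The first pair was Fads2. While its intronic region rose, its start-site region (chr19:10099631-10102531) had 144, 122 and 127 CPM in HFD A, B and D, against 147, 150 and 115 CPM in CD A, C and D, with overlapping diets (log2 change -0.07, SE 0.08). The difference of changes was 1.42 (SE 0.19, adjusted p = 0.00592, limma). The second was Ccrn4l, whose start-site region had 204, 179 and 182 CPM in HFD A, B and D, against 158, 156 and 144 CPM in CD A, C and D. That region also rose, by 0.30 on the log2 scale (SE 0.07, adjusted p = 0.00905, edgeR), and the intronic region exceeded it by 1.58 (SE 0.23, adjusted p = 0.0121, limma). Both calls depended on single libraries, with an adjusted p of up to 0.179 for Fads2 and 0.232 for Ccrn4l, both without CD C.

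On the side of decreases, no pair passed with limma. Crot came closest, with a start-site region of 60.0, 67.8 and 65.2 CPM in HFD A, B and D, against 62.0, 70.0 and 66.2 CPM in CD A, C and D, and differences of -1.25 (SE 0.22) and -1.20 (SE 0.23), at limma adjusted p-values of 0.0612 and 0.0716. These 2 Crot pairs and those of Ddc, Stat5b and Clpx passed in edgeR's interaction test (adjusted p = 0.00147, 0.00308, 0.00308, 0.0438 and 0.0373). The Stat5b start-site region lies at chr11:100849480-100851728, on another start of the gene than the one 4823 bases from the intronic region. For Ppara, Herpud1 and Zfp36l2 the differences were 0.48 (SE 0.10), 0.77 (SE 0.16) and -0.98 (SE 0.18), with an adjusted p of 0.0851, 0.0851 and 0.0716 (limma). The region listed under Zfp36l2 lies in an intron of Thada, at -5560 bases from the Zfp36l2 start.

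Some other intronic changes came with a change at the start site. At Cyp17a1 the start-site region had 6.05, 6.34 and 4.06 CPM in HFD A, B and D, against 2.14, 2.25 and 2.57 CPM in CD A, C and D (log2 change 1.25, SE 0.24), and the difference of changes was 0.60 (SE 0.34, adjusted p = 0.751, limma). At Serpina1e the start-site region had 2.13, 1.48 and 1.98 CPM in HFD A, B and D, against 9.91, 6.67 and 5.15 CPM in CD A, C and D (-1.96, SE 0.25). At Ddc, by contrast, the start-site region overlapped between the diets (2.98, 2 and 1.21 CPM in HFD A, B and D, against 3.48, 1.5 and 2.77 CPM in CD A, C and D). Its log2 change was -0.28 (SE 0.30), and the difference of changes was -2.09 (SE 0.41, adjusted p = 0.0773, limma). A p above the threshold does not show that region and start site changed alike.

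**Figure D4:**
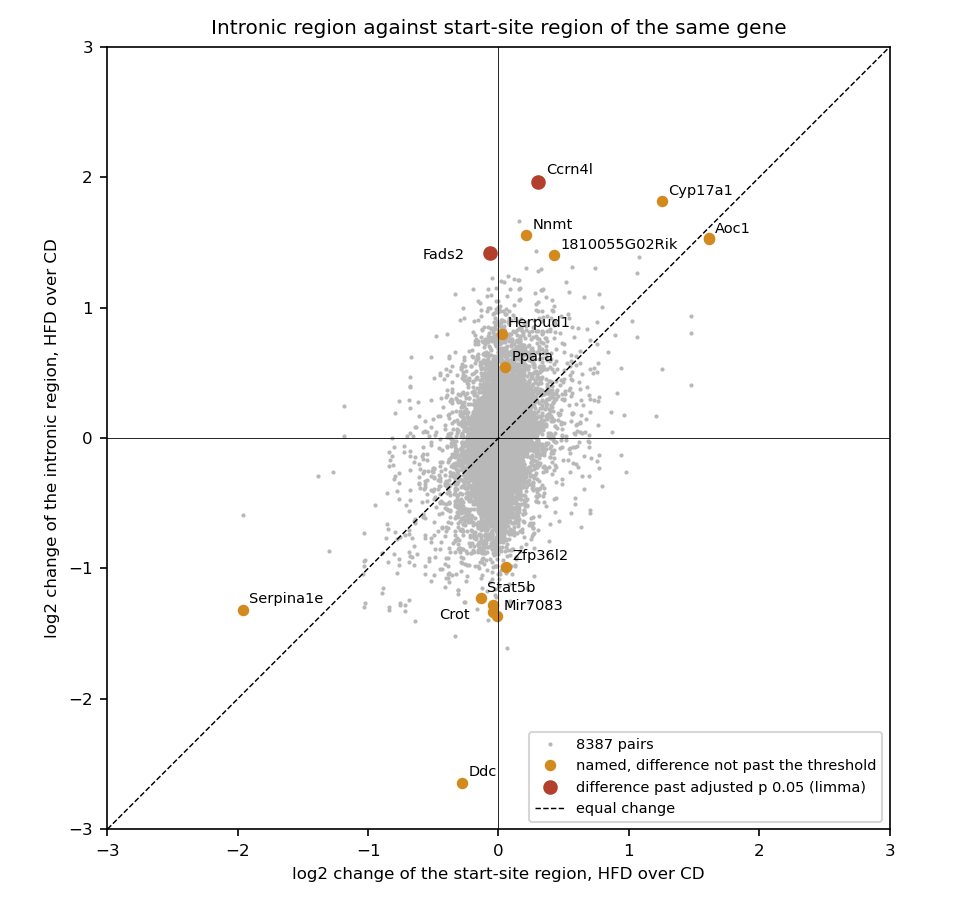
Each point is 1 of 8387 pairs of regions with the same listed nearest gene. The log2 change (HFD over CD) of the start-site region is on the horizontal axis and that of the intronic region on the vertical axis. The dashed line marks equal change. Fads2 and Ccrn4l, in red, passed the limma test of the difference, with intronic changes of 1.42 and 1.96 at start-site changes of -0.07 and 0.30. Regions of Crot and Ddc, in orange, lie far below the line without passing it.

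RNA was measured for 4313 of the 5421 nearest genes (79.6%), and the others were not in the RNA table. Of these 414 (9.60%) passed, against 7.27% of all genes, 218 of them higher (all genes, 3.63%) and 196 lower (all genes, 3.64%). The 83 regions that rose lay next to 71 genes, of which 63 were measured. RNA of 30 of those rose, that of none fell, and 33 did not pass. The 156 regions that fell lay next to 123 genes, of which 110 were measured, with RNA lower for 34, higher for 4 and not past the threshold for 72. Seen from the RNA, the regions of the 218 genes that rose had a median log2 change of 0.21 (530 regions, 37 called higher and 5 lower), and those of the 196 genes that fell -0.26 (430 regions, 0 called higher and 47 lower). Over the 4313 genes, which are not independent replicates, the median change of a gene's intronic regions and its RNA change had a Spearman rho of 0.25 and a Pearson r of 0.32, given as a description.

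Among the genes of the largest region changes, RNA moved the same way at Csad, Ddc, Serpina1e, Ccrn4l, Cyp17a1, Mfsd2a, Nnmt, Fads2 and 1810055G02Rik, did not pass at Crot, and was not in the RNA table for Aoc1. Of the host genes of the miRNA-named regions, Ppard fell, while Dock6 averaged 21.9 ± 3.21 CPM in HFD and 21.8 ± 5.44 CPM in CD (SD, n = 4 each, adjusted p = 0.992, edgeR). RNA of Csad averaged 35.1 ± 7.27 CPM in HFD and 610 ± 89.3 CPM in CD, and RNA of Serpina1e 3159.9 ± 908 CPM in HFD and 12069.9 ± 1834 CPM in CD (SD, n = 4 each). RNA of Mfsd2a averaged 139 ± 83.4 CPM in HFD and 6.72 ± 1.43 CPM in CD, and that of Cyp17a1 25.4 ± 8.59 CPM in HFD and 2.51 ± 0.378 CPM in CD. Ccrn4l RNA had 52.2, 60.9, 18.3 and 18.7 CPM in HFD A to D, against 3.17, 5.84, 2.70 and 2.46 CPM in CD A to D. All 4 HFD livers were above all 4 CD livers, with a wide spread within HFD. RNA of Fads2 had 851, 967, 511 and 834 CPM in HFD A to D, against 331, 301, 370 and 309 CPM in CD A to D.

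A few regions went against the RNA of their nearest gene. The 5 such regions, chosen after their values were seen, all fell while the RNA rose, next to Cela1 (a pancreatic-type elastase), Slc38a4 (an amino acid transporter), Amy1 (an amylase) and, with 2 regions, 1700001C19Rik. At Slc38a4 the region had 20.5, 16.5 and 17.1 CPM in HFD A, B and D, against 23.4, 26 and 27.4 CPM in CD A, C and D, while RNA averaged 1725 ± 196 CPM in HFD and 1044 ± 89.6 CPM in CD (SD, n = 4 each). At Cela1 the region averaged 21.7 ± 1.55 CPM in HFD and 32.2 ± 3.31 CPM in CD, and RNA 34.4 ± 5.27 CPM in HFD and 19.2 ± 3.97 CPM in CD. The 1700001C19Rik regions lie in an intron of AI661453, whose own RNA fell (42.8 ± 1.39 CPM in HFD and 57.5 ± 7.27 CPM in CD, SD, n = 4 each, adjusted p = 0.0363, edgeR).

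**Figure D5:**
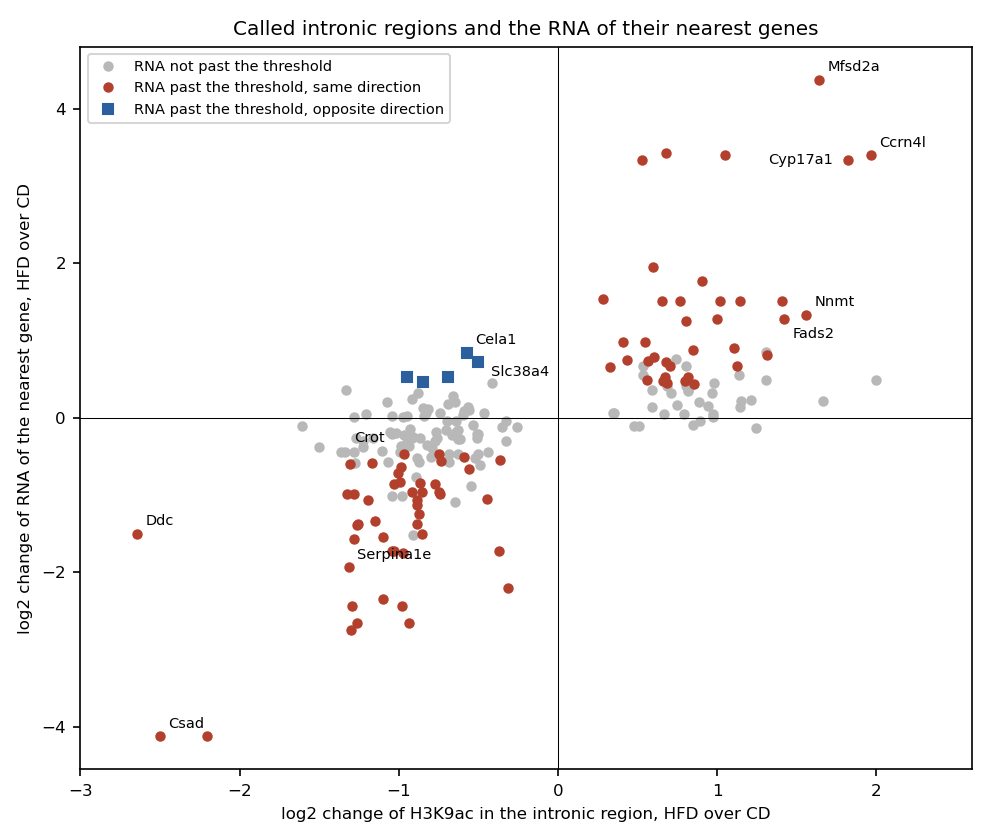
Each point is a called intronic region whose nearest gene has RNA values, with the log2 change of H3K9ac on the horizontal axis and of RNA on the vertical axis, both HFD over CD. Red points passed in both assays in the same direction, blue squares in opposite directions, and grey points did not pass by RNA. The 5 opposite regions all have lower H3K9ac and higher RNA, at RNA changes below 1.

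Among the regions that hold a RefSeq start, those of the printed windows changed as follows. The region with the Ethe1 start (chr7:24593547-24595834) averaged 35.3 ± 4.08 CPM in HFD and 60.7 ± 5.24 CPM in CD (SD, n = 3 each, log2 change -0.79, SE 0.10, adjusted p = 4.33e-08, edgeR). Ethe1 encodes a mitochondrial enzyme of sulfide breakdown. The region with the second Micalcl start averaged 11.6 ± 1.18 CPM in HFD and 21.4 ± 2.49 CPM in CD (-0.89, SE 0.14, adjusted p = 1.65e-05), and that of Aqp8, a water channel gene, 35.1 ± 5.11 CPM in HFD and 49.9 ± 3.89 CPM in CD (-0.50, SE 0.10). The short Akr1d1 region with the Gm33429 start had 2.16 ± 0.767 CPM in HFD and 0.871 ± 0.175 CPM in CD (1.31, SE 0.37, adjusted p = 0.0406).

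The start windows were also searched on both strands for short binding motifs. CACGTG, the E-box letters bound by clock and SREBP family factors, was in 11 of the 185 windows inside intronic regions (5.95%), against 7.15% of all 32851 windows of that length. It occurs once in the printed Aqp8 window, at position -75 from the start. TATAAA was in 7.57% of the 185 windows, against 13.6% of all windows, and their median GC content was 60.0%, against 52.7%. TGACTCA, the AP-1 letters, was in 1 window (0.541%, against 5.202%), and TGACGTCA, the cAMP response letters, in 2 (1.08%, against 1.79%). TTATGTAA, TTACGTAA and CAAAGTCCA were in 0 of the 185 windows (0.938%, 0.119% and 0.475% of all windows). Such a match is a run of letters and not a binding site.

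Total counts lay between 9255635 and 12149497 per H3K9ac library and between 31802893 and 37596560 per RNA library. Correlations of log2 CPM over all regions were 0.971 to 0.979 within HFD, 0.971 to 0.977 within CD and 0.966 to 0.973 between the diets, so livers of different diets were only slightly less alike than livers of 1 diet. No 2 libraries agreed within sampling noise.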

How the data were processed

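The authors deposited, per the file headers, raw read counts per region for 6 H3K9ac libraries and per gene for 8 RNA libraries, together with log2 values (log2 CPM, log2 FPKM and log2 fold changes) and a p-value and false discovery rate per region and gene. The submitters' processing notes name mm10 as the build. Aligner, peak caller, counter and strand use: not given in the sources used here. Regions listed more than once were counted once, and blank RNA lines (4999) were left out. Gene names turned into spreadsheet dates (119 lines) were treated as missing. The input and ATAC-seq libraries were not analysed here. Every column of per-sample values belonged to a library in the labels.

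The main test was edgeR 4.0.16 under R 4.3.3 on the counts (TMM scaling, filterByExpr, which removed no feature, glmQLFit and glmQLFTest, diet as the only term), fitted over all 57499 regions or 12334 genes, two-sided, with Benjamini-Hochberg adjustment and a threshold of 0.05. All adjusted p-values come from this test unless limma 3.58.1 is named. Log2 changes are HFD over CD, given with their SE (standard error), and levels are TMM-scaled CPM, means ± SD. For the comparison with start sites, log2 CPM used a prior count of 2, and pairs had to share a chromosome and lie within 100000 bases. Density used a pseudocount of 0.1 CPM per kb. Labels do not state separate cultures or litters, so p-values measure the spread between these livers. A count of 3, the floor, was 0.247 to 0.324 CPM in the H3K9ac libraries. The steps were tested on simulated data with known changes.

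Regions named are the 8 largest increases and decreases among called, non-overlapping regions at or above the median level, up to 2 regions per gene list by smallest p, the 5 densest, the 4 genes with most regions and up to 4 pairs per direction. Some regions that the rule names are not reported here. The regions and the gene lists were chosen with earlier results of these data known. Alternatives were leaving out each library, other scalings, filters and tools, a replicate block, a stricter reading of the distance and another choice of start-site region. Equal letters were checked as pairs: their deviations correlated at 0.0936 (A) and 0.0753 (D) in the H3K9ac and from -0.222 to 0.295 in the RNA, so they were not used as pairs.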

Additional observations from a re-analysis of the deposited data

Results flagged for a closer look

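RNA of Abcg5, the sterol transporter gene next to one of the intronic regions that rose, had 185, 172, 136 and 110 CPM in HFD A to D, against 35.7, 48.2, 46.1 and 47.7 CPM in CD A to D. The value of 35.7 CPM in CD A stood apart from the other CD livers, which lay between 46.1 and 48.2 CPM. It was the only such value among 52 groups of 4 RNA libraries examined, and chance flags about 1 in 20 groups. The direction of the difference between the diets does not rest on that liver.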

How the results depend on the processing

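With 1 library left out, the number of intronic regions called ran from 91 (without HFD B) to 310 (without HFD D), the number of nearest genes called by RNA from 214 (without HFD B) to 511 (without HFD A), and the number of pairs past the limma test from 0 (without HFD A or CD C) to 10 (without HFD D). The share of increases among called regions, 34.7% with all libraries, ran from 23.8% (without HFD A) to 53.5% (without HFD D). DESeq2 called 138 intronic regions and 644 genes, a test of only the regions at or above the median level called 151, and edgeR's interaction test passed 7 pairs. The labels do not say whether equal letters pair the livers. With the replicate block, 197 intronic regions (53 higher, 144 lower), 384 genes and 14 pairs (4 higher, 10 lower) were called. No called region or gene changed sign in these settings. Uncalled values did: log2 changes with 1 library left out ran from -0.23 to 0.060 for Hnf4a, -0.0952 to 0.020 for Ywhaz, -0.14 to 0.66 for Nr4a1, -0.10 to 0.22 for Cd79a, -0.016 to 0.040 for Ppap2b, -0.49 to 0.45 for Klf6 and -0.080 to 0.25 for Hp RNA, and with the replicate block Ywhaz was at 0.028 and Klf6 at -0.66. The cause was not tested. Depth limits the weakest quartile of regions most, with a median of 12.7 counts per library.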

Other observations

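Among the 163 intronic regions that contain a RefSeq start window, 2 more called ones, chosen after their values were seen, are given here. A Cyp17a1 region 4525 bases from the start holds the start of Gm41857 and averaged 19.1 ± 3.41 CPM in HFD and 13.3 ± 0.397 CPM in CD (SD, n = 3 each, log2 change 0.53, SE 0.14, adjusted p = 0.0243, edgeR). The Fam198a region, which reaches a start listed by RefSeq as Gask1a, averaged 35.8 ± 1.59 CPM in HFD and 56.3 ± 4.98 CPM in CD (-0.65, SE 0.10, adjusted p = 3.89e-06).

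RefSeq places 3 miRNA hairpins wholly inside intronic regions, those of Mir1954 in Eng, Mir5122 and Mir12181 in Coro6. None of these regions was called. They averaged 21.1 ± 1.46 CPM in HFD and 23.1 ± 2.10 CPM in CD for Mir1954, 71.6 ± 5.05 CPM in HFD and 74.4 ± 4.14 CPM in CD for Mir5122, and 5.599 ± 0.744 CPM in HFD and 5.83 ± 0.469 CPM in CD for Mir12181 (SD, n = 3 each).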
